A study of Homo sapiens with 4 samples.

Results

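The most read long transcripts in these libraries were uc022brd.2, 13513 nt long, and uc010roh.3, 8707 nt long. They are 2 of the 78631 transcripts in the tables and were chosen by their share of the deposited reads, as the most read among transcripts of 8000 nt or more. Their large read shares are therefore not a result. The next transcript by reads, just outside the choice, was uc002kdu.3 (8481 nt), with a mean read share of 0.155% over the 4 libraries against 0.413% for uc010roh.3 and 3.54% for uc022brd.2. Their working names are the ribosomal RNA precursor for uc022brd.2 and MALAT1 for uc010roh.3, and these names rest on length and abundance.

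Total RNA was sequenced from imatinib-resistant K562 cells, an established human chronic myeloid leukaemia line that the labels describe as erythroid and as treated with imatinib (IM), in all 4 samples. Of these, 2 are labelled VC and 2 KD, with PLAG1, a zinc finger transcription factor gene, named for both groups. The labels spell out neither abbreviation; KD usually stands for knockdown. They do not say how a knockdown was made, whether the cells were a clone or whether samples with the same label were grown as separate cultures. The errors below therefore describe how far these samples lie apart, and that may be technical variation. The tables pair no identifier with a gene name, so neither PLAG1 nor markers of K562 were analysed here. The library totals ran from 16450627 to 20613436 reads.

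The precursor of ribosomal RNA is made by RNA polymerase I in the nucleolus. It is cut into the large and small structural RNAs of the ribosome, with spacers that are degraded. A read from one of these structural RNAs matches the precursor as well. If the working name holds, the reads counted under it therefore do not measure the precursor alone. The part of the structural RNAs in these reads was not tested. Nor was the part of any removal of ribosomal RNA or selection of poly(A) RNA before sequencing in the read shares of either transcript. MALAT1 is a long noncoding RNA that stays in the nucleus, in the speckles where splicing factors gather, and is abundant in many cell types. It has no ordinary poly(A) tail. Its end is made by RNase P, which cuts ahead of a small tRNA-like RNA, and the new end, an A-rich tract that is encoded in the genome, folds with U-rich stretches into a triple helix that protects the RNA.

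That end is shown here because it sets MALAT1 apart from polyadenylated RNAs of like length. It was taken from the GENCODE release 29 transcript MALAT1-202, a lincRNA of 8708 nt, and covers its bases 8257 to 8424, 5′ to 3′, as DNA letters. The capitals mark the longest run of A in the transcript, 13 bases at positions 8337 to 8349, and the tRNA-like part follows it.

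MALAT1-202: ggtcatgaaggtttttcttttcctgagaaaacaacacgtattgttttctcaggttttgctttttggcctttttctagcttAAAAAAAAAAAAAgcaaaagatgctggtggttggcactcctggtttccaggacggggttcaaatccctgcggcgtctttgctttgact

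The annotated transcript runs 359 bases past that run of A, so its length is not that of the mature RNA. uc010roh.3 is 1 nt shorter than MALAT1-202. Length alone does not settle the name, since 4 GENCODE transcripts lie within 1 nt of 8707 nt, and the other 3 are protein-coding transcripts of PLCG2, FN1 and CIT. Only that of PLCG2 has exactly 8707 nt. The name of uc022brd.2 is less secure. The 5 RefSeq genes for the ribosomal RNA precursor in assembly GRCh38.p14 are 13309 to 13373 nt long, so uc022brd.2 is 140 to 204 nt longer than each of them. The only GENCODE transcript within 1 nt of it is a coding transcript of CSMD1. Both transcripts are therefore called by their identifiers below, and nothing is said of where in the genome they lie.

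uc022brd.2 held 3.68% of all reads in VC 1 and 3.08% in VC 2. In KD it held 5.03% in KD 1 and 2.37% in KD 2. The KD libraries thus hold both the highest and the lowest share, with the VC libraries between them, and the groups overlap. The counting error of a share this large is small, since the Wilson 95% interval reached at most 0.0106 percentage points to each side. These intervals cover counting error only, since the labels name no molecular identifiers.

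uc010roh.3 held 0.454% of all reads in VC 1 and 0.402% in VC 2. It held 0.402% in KD 1 and 0.392% in KD 2. Both KD libraries lie below both VC libraries, but KD 1 and VC 2 are separated by less than their counting error: the Wilson 95% intervals are 0.39902% to 0.40513% in KD 1 and 0.39957% to 0.40503% in VC 2. Its place in the order of all transcripts by reads was 10 in each of the 4 libraries. uc022brd.2 was in place 3 in VC 1, VC 2 and KD 2 and in place 1 in KD 1.

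**Figure D1:**
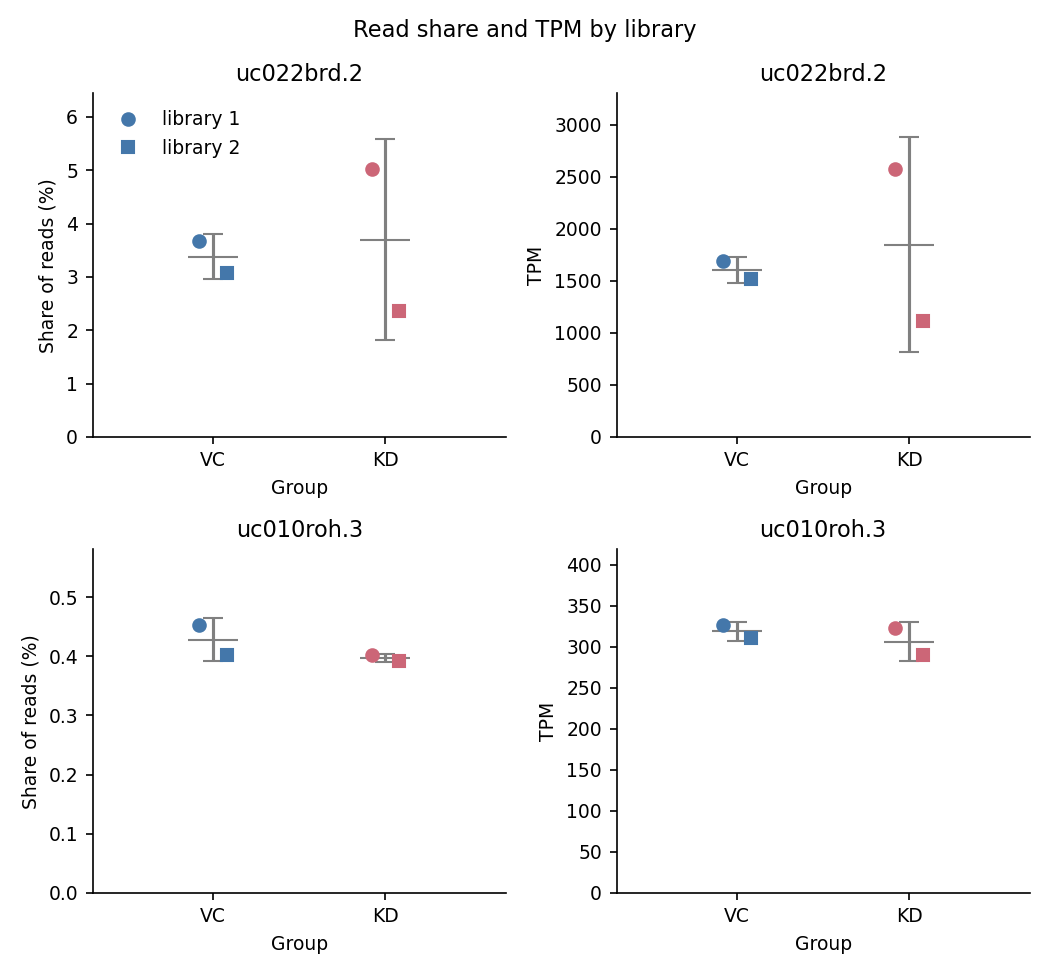
Share of reads in percent (left) and TPM (right) of uc022brd.2 (top) and uc010roh.3 (bottom) in the 2 VC and 2 KD libraries. Points are libraries, the horizontal mark is the group mean and the bar is the SD (n = 2); for uc022brd.2, KD 1 at 5.03% and KD 2 at 2.37% lie on both sides of the VC libraries.

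On the TPM scale, which divides reads by the effective length of a transcript and scales each library to the same total, both transcripts fall far down the order. uc022brd.2 had 1693 TPM in VC 1, 1518 in VC 2, 2577 in KD 1 and 1114 in KD 2, in places 33, 38, 15 and 63. These values have the order of the read shares. uc010roh.3 had 327 TPM in VC 1, 311 in VC 2, 323 in KD 1 and 290 in KD 2, in places 175, 183, 186 and 194. Here KD 1 lies between the VC libraries, so the groups overlap on the TPM scale where they did not by read share. As a part of all TPM, uc022brd.2 made up 0.161% ± 0.0124 in VC and 0.185% ± 0.103 in KD. uc010roh.3 made up 0.0319% ± 0.00116 and 0.0306% ± 0.00237 in the same order (± SD, n = 2 per group).

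The effective length was between 226 and 265 nt below the length of either transcript, depending on the library. This is 1.67% to 1.96% of uc022brd.2 and 2.60% to 3.04% of uc010roh.3. The correction for effective length is therefore slight for both, while it is large for short transcripts.

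The first comparison was the spread of each transcript between the libraries of a group. uc022brd.2 varied far more in KD than in VC. In CPM, which are reads scaled to a common library size with TMM factors, it had 37183 in VC 1, 31092 in VC 2, 50121 in KD 1 and 23703 in KD 2. The KD libraries differed 2.11-fold and the VC libraries 1.20-fold. The difference in spread was not tested.

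Set beside other well-read transcripts, the difference between KD 1 and KD 2 was large and that between the VC libraries ordinary. Of the tested transcripts, 3858 averaged 50 CPM or more. The median of their absolute log2 CPM differences was 0.18 in KD and 0.26 in VC. For uc022brd.2 it was 1.08 in KD, and 45 transcripts (1.17%) had a larger one. In VC it was 0.26, and 1963 (50.9%) had a larger one. Of the 52 that averaged 1000 CPM or more, itself included, none had a larger difference in KD than uc022brd.2, and 21 had a larger one in VC.

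uc010roh.3 varied little in KD and about as much as others of its level in VC. It had 4586 CPM in VC 1, 4061 in VC 2, 4005 in KD 1 and 3929 in KD 2, so the 3 lowest values lie close together below VC 1. Its absolute log2 CPM difference was 0.03 in KD, where 3521 of the 3858 (91.3%) had a larger one, and 0.18 in VC, where 2498 (64.7%) had a larger one. Of the 52 that averaged 1000 CPM or more, 50 differed more than uc010roh.3 in KD and 27 in VC, where the median was 0.19. Of the transcripts of 8000 nt or more, 308 averaged 50 CPM or more. Among these, 287 differed more in KD than uc010roh.3, and 5 differed more than uc022brd.2.

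**Figure D2:**
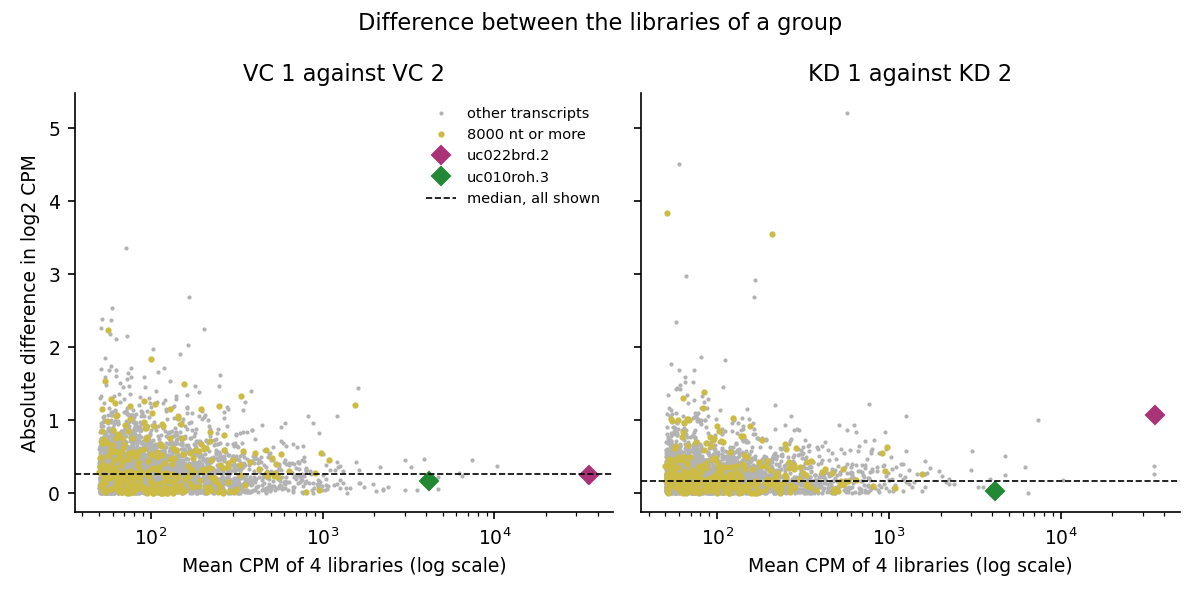
Absolute log2 CPM difference between the 2 VC libraries (left) and the 2 KD libraries (right) against the mean CPM of the 4 libraries on a log axis, for the 3858 transcripts averaging 50 CPM or more. In KD, uc022brd.2 stands at 1.08, against a median of 0.18 (dashed line), and uc010roh.3 at 0.03.

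The libraries with the higher shares of uc022brd.2, KD 1 and VC 1, had the fewer reads, 16450627 and 17833366, against 20613436 in VC 2 and 19997430 in KD 2. The part of depth in this was not tested. KD 1 had the lowest share of reads in transcripts of 200 to under 500 nt, 8.82%, against 11.4% in VC 1, 10.3% in VC 2 and 11.4% in KD 2. It had the widest gap between length and effective length, 265 nt, against 226 nt in VC 1, 250 nt in VC 2 and 246 nt in KD 2. VC 1, second by its share of uc022brd.2, had the highest share of reads in that class and the narrowest gap. The part of either measure in the spread of uc022brd.2 was not tested.

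The ratio of the 2 transcripts within a library does not depend on library size. Per length, on the TPM scale, uc022brd.2 exceeded uc010roh.3 by 5.18 times in VC 1 and 4.88 times in VC 2. In KD the ratio was 7.97 in KD 1 and 3.85 in KD 2. By reads the ratios were 8.11, 7.66, 12.5 and 6.03 in the same order. The VC ratios again lie between the KD ratios. The log2 ratio by reads averaged 2.98 ± 0.06 over the VC libraries and 3.12 ± 0.74 over the KD libraries (± SD, n = 2 per group), with an exact two-sided permutation p of 1. With 2 against 2 libraries this test cannot give a p below 0.33.

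The second comparison, named in the series title, was KD against VC. Neither transcript passed the test. With edgeR's quasi-likelihood test over 35776 transcripts, the log2 fold change of uc022brd.2 from VC to KD was 0.11 (SE 0.41, edgeR adjusted p = 1.00). Its 95% interval ran from -1.03 to 1.25, or from 0.491-fold to 2.38-fold, so the data exclude neither a fall nor a rise of 2-fold. The direction rests on single libraries: the value was -0.51 without KD 1, -0.01 without VC 2, 0.25 without VC 1 and 0.56 without KD 2, with an edgeR adjusted p of 1.00 for each.

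uc010roh.3 was more narrowly bounded. Its log2 fold change was -0.12 (SE 0.14, edgeR adjusted p = 1.00), with a 95% interval from -0.52 to 0.27, or from 0.699-fold to 1.21-fold. A change of 2-fold lies outside this interval, which rests on the spread of these 4 libraries. Its CPM was lower in both KD libraries than in both VC libraries, which also held for 12.6% of the 3858 transcripts that averaged 50 CPM or more. Without VC 1, the value moved from -0.12 to -0.03. In bulk RNA, fewer cells carrying an RNA and less of it per cell cannot be told apart.

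Of all 35776 transcripts, 0 (0%) had an edgeR adjusted p below 0.05, and 1399 (3.91%) an unadjusted p below 0.05. Neither of the long pair was among the 1399. By limma-voom the count was again 0, and 948 had an unadjusted p under that level. DESeq2 called 345, without uc022brd.2 or uc010roh.3, for both of which it gave an adjusted p of 1.00.

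**Figure D3:**
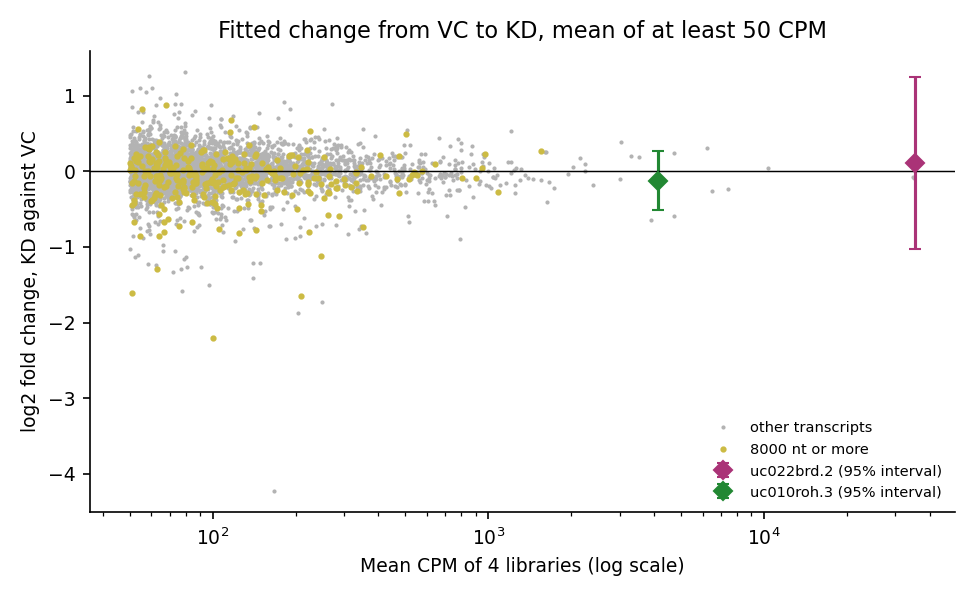
Fitted log2 fold change from VC to KD against the mean CPM of the 4 libraries on a log axis, for the 3858 transcripts averaging 50 CPM or more, with 95% intervals for uc022brd.2 and uc010roh.3. The interval of uc022brd.2 spans -1.03 to 1.25 although it is the most read of those shown at 8000 nt or more, and that of uc010roh.3 spans -0.52 to 0.27.

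The third question was how much of the long RNA these 2 transcripts made up, and what remains without them. The class of 8000 nt or more held 9.99% of all reads in VC 1, 9.63% in VC 2, 11.1% in KD 1 and 8.52% in KD 2. uc022brd.2 alone held 36.8%, 32.0%, 45.3% and 27.8% of those reads in the same order, and uc010roh.3 held 4.54%, 4.18%, 3.62% and 4.60%. The remaining 2180 long transcripts shared the rest. It took the 151 most read of these to reach the mean share of uc022brd.2.

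With uc022brd.2 left out of the class and of the library totals, the libraries had nearly the same share. The other long transcripts then took 6.55% in VC 1, 6.75% in VC 2, 6.40% in KD 1 and 6.30% in KD 2. The KD value went from 9.81% ± 1.83 to 6.35% ± 0.0667, and the VC value from 9.81% ± 0.257 to 6.65% ± 0.141 (± SD, n = 2 per group). The order of the libraries changed as well: KD 1 was the highest with uc022brd.2 and the third of the 4 without it.

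Leaving out uc010roh.3 changed little but the level. The class then took 9.58% in VC 1, 9.26% in VC 2, 10.7% in KD 1 and 8.16% in KD 2, or 9.42% ± 0.225 over VC and 9.45% ± 1.83 over KD (± SD, n = 2 per group). The order of the libraries stayed as it was with both transcripts present.

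Without both, the share was 6.11% in VC 1, 6.36% in VC 2, 6.00% in KD 1 and 5.92% in KD 2. Both KD libraries then lie below both VC libraries, as they also did with uc022brd.2 alone left out, where the difference was -0.303 percentage points. The exact two-sided permutation p was 0.33 for each of these, the smallest the design allows. It was 1 with both present and with uc010roh.3 alone left out. After Benjamini-Hochberg adjustment over 9 of the share and ratio tests, these p-values were all 1. The same test on related quantities, such as the long class by TPM, lay outside these 9.

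The lower share in KD once uc022brd.2 is set aside was also found at other length limits. These classes contain one another and use the same 4 libraries, so they are not separate evidence. For transcripts of 10000 nt or more, with both left out, the share was 3.00% in VC 1, 3.05% in VC 2, 2.88% in KD 1 and 2.87% in KD 2. For 5000 nt or more it was 18.4%, 18.8%, 18.3% and 18.1% in the same order. At 8000 nt, without both, the difference was -0.276 percentage points and moved to -0.149 without VC 2. On the TPM scale the groups overlapped: the long transcripts without both held 0.347% of TPM in VC 1, 0.392% in VC 2, 0.376% in KD 1 and 0.350% in KD 2.

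**Figure D4:**
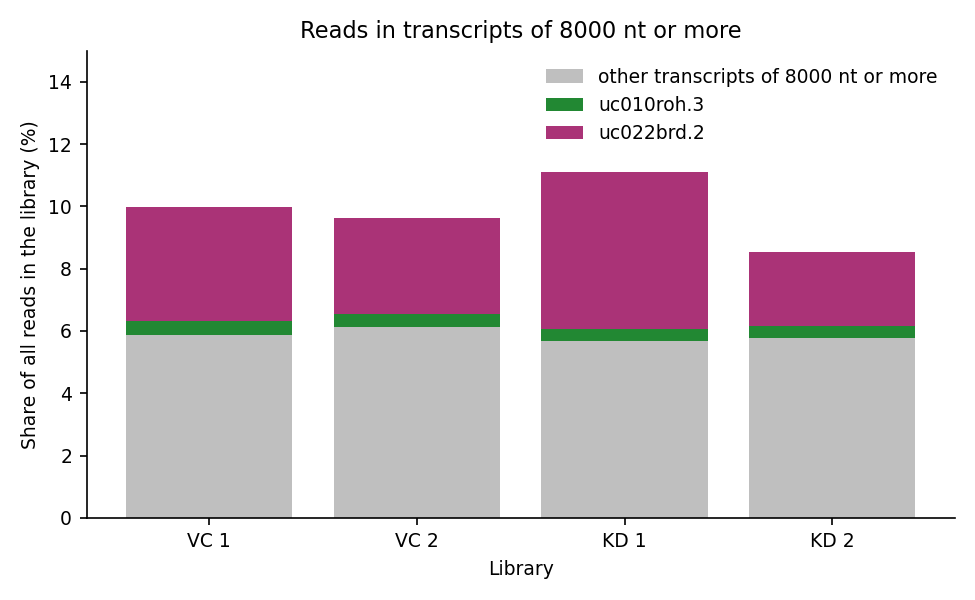
Share of all reads of a library, in percent, in transcripts of 8000 nt or more, stacked as uc022brd.2, uc010roh.3 and the other 2180 transcripts of that length. The whole bars run from 8.52% (KD 2) to 11.1% (KD 1), and the segment of uc022brd.2 runs from 2.37% to 5.03% in the same libraries.

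Both transcripts passed the filter on low reads, as did 1263 of the other 2180 long transcripts. The remaining 917 did not, and 470 of the 2180 had 0 reads in every library. Of the 1263 tested, 0 were called by edgeR and 41 by DESeq2. DESeq2 called 345 of all 35776 tested transcripts and gave no adjusted p to 3468 of them. At an unadjusted edgeR p below 0.05 there were 92 of the 1263 (7.28%), 26 higher and 66 lower in KD. Among all tested transcripts it was 3.91% (624 higher and 775 lower). Among those that averaged 50 CPM or more, there were 12 of 306 long transcripts (3.92%), 2 higher and 10 lower. Of all at that level it was 2.85% (60 higher and 50 lower). The median log2 fold change of the 1263 was -0.08 and that of all tested transcripts -0.01. The value of uc010roh.3 lay near the former and that of uc022brd.2 above both, with an interval that includes each.

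The long transcripts next in read number did not all have the same pattern over the libraries. uc002kdu.3 (8481 nt) had a read share of 0.0840% in VC 1 and 0.195% in VC 2, and 0.155% in KD 1 and 0.185% in KD 2. Its low value is VC 1, where uc022brd.2 was above its own VC 2 value. uc003zxt.2 (8434 nt) took 0.0719% in VC 1, 0.106% in VC 2, 0.128% in KD 1 and 0.0825% in KD 2. uc004fkk.2 (8557 nt) took 0.0834%, 0.102%, 0.105% and 0.0712% in the same order. Both were higher in KD 1 than in KD 2, by 1.56 and 1.47 times, as uc022brd.2 was by 2.13 times in read share.

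uc001ntl.3 (18836 nt) ran from 0.0865% in KD 2 to 0.107% in KD 1 and differed 1.24 times in KD. uc003xqi.3 is 13509 nt long, only 4 nt short of uc022brd.2, and took 0.0990% in VC 1, 0.136% in VC 2, 0.0968% in KD 1 and 0.101% in KD 2. Its KD libraries differed 1.04 times. The part of length in the wide KD spread of uc022brd.2 was not tested. None of these 5 passed the test (edgeR adjusted p = 1.00 for each).

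**Figure D5:**
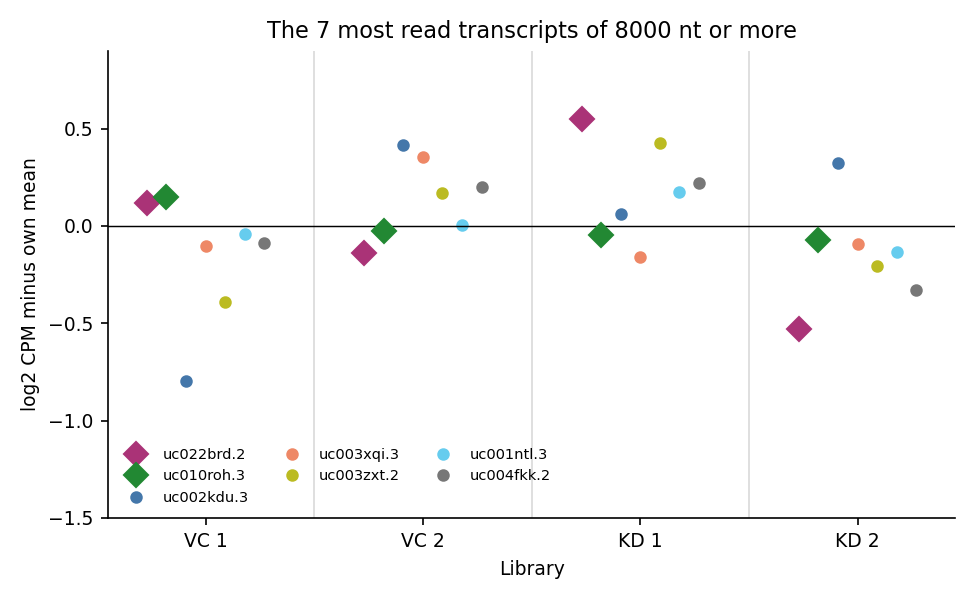
log2 CPM of the 7 most read transcripts of 8000 nt or more in each library, each centred on its own mean over the 4 libraries; diamonds are uc022brd.2 and uc010roh.3. uc022brd.2 runs from -0.53 in KD 2 to 0.55 in KD 1, and uc010roh.3 from -0.07 in KD 2 to 0.15 in VC 1.

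Rows next to each of the pair were described, but a place nearby does not show that reads are shared. The reads of both transcripts were not whole numbers in any library (tolerance 0.001). In the authors' quantification a part of a read is given where reads match several transcripts, so each of the 2 shared at least some reads with another row, and the files do not say which. Reads were whole in all 4 libraries for only 6.40% of the 1265 tested transcripts of 8000 nt or more and for 8.71% of all tested.

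Little was read beside uc022brd.2. The 5 rows before it and the 5 after it held 815 to 1330 reads together, or 0.0984% to 0.243% of its own. The most read of them, uc011mfq.2 (3662 nt), had 639 reads in VC 1, 593 in VC 2, 365 in KD 1 and 573 in KD 2, with its lowest value where uc022brd.2 had its highest. uc022brb.1 (1142 nt) had 359, 194, 134 and 266 in the same order. The others with a mean of at least 10 reads were uc011mfs.2, uc011mfp.1, uc011mfo.2 and uc031tge.1, with means from 10 to 152 reads. uc022brd.2 itself had 827696 reads in KD 1 and 473406 in KD 2.

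The rows around uc010roh.3 included another abundant long transcript. uc010rog.2 (21760 nt), placed 2 rows before it, had 9773 reads in VC 1, 13967 in VC 2, 11668 in KD 1 and 12418 in KD 2. It was the ninth of all transcripts of 8000 nt or more by mean read share. Its lowest value is VC 1, where uc010roh.3 had its highest CPM. Per length it was far below uc010roh.3, with 15.6, 20.6, 22.4 and 18.0 TPM in the same order. Its log2 fold change from VC to KD was 0.10 (SE 0.18, edgeR adjusted p = 1.00). The other named rows of that stretch, uc001oeb.1, uc001oea.1, uc001odu.4, uc010rof.2, uc001odz.3, uc009yqk.3 and uc009yqj.3, had means from 82.5 to 867 reads.

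The transcripts most like each of the pair were taken among 3857 others that averaged 50 CPM or more, by the root mean square difference of centred log2 CPM over the 4 libraries. With 4 points that share their libraries and depth, this is a description only. The nearest to uc022brd.2 was uc003fnr.3 (5123 nt), at a distance of 0.07 against a median distance of 0.44 over all. It had 82.4 CPM in VC 1, 66.7 in VC 2, 101 in KD 1 and 46.9 in KD 2, which is the order of uc022brd.2. uc002crl.1 (7993 nt, 0.10) and uc003nol.3 (1636 nt, 0.11) came next. In mean CPM these 3 were 466 to 610.1 times below uc022brd.2.

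The nearest transcripts to uc010roh.3 were uc001omj.2 (1631 nt), uc001hks.3 (3946 nt) and uc003lnx.1 (4868 nt). Each lay at a distance of 0.01, where the median over all was 0.20, against 0.44 for uc022brd.2. The distance is not scaled for how far a profile varies, so smaller distances here do not mean greater likeness. The nearest, uc001omj.2, had 145 CPM in VC 1, 128 in VC 2, 128 in KD 1 and 126 in KD 2, with VC 1 above 3 close values, as in uc010roh.3.

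Leaving the pair out of the scaling moved the effective library sizes by -3.30% in VC 1, -3.98% in VC 2, -3.98% in KD 1 and -4.63% in KD 2. The log2 fold change of uc022brd.2 was then 0.12 and that of uc010roh.3 -0.11. All the library sizes moved by similar amounts, so this check could hardly have turned either direction.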

How the data were processed

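Total RNA from K562 cells resistant to imatinib (4 samples, by their titles 2 VC and 2 KD) was prepared with a NEB Ultra RNA-Seq kit, per the labels' protocols. The authors quantified each library with Salmon 0.8.1, with genome build hg19, per the submitters' processing notes. The sources used here give no index, options or strand setting. The deposited reads are estimated counts, which can hold parts of a read, and the deposited TPM values are these counts per effective length, scaled to the same total in each library, per the file headers. No read, coordinate or gene name is in the tables.

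Counts were rounded, filtered (edgeR 4.0.16, minimum count 10, minimum total count 15), scaled with TMM and tested over all 35776 remaining transcripts by the quasi-likelihood F-test (robust, group only, two-sided, R 4.3.3) with Benjamini-Hochberg adjustment at 0.05. The SE is the log2 fold change divided by the square root of F. log2 CPM used a prior count of 2. Shares used unrounded reads over all transcripts. The scripts were tested on simulated data. Alternatives were other scalings and filters, DESeq2 1.42.0, limma 3.58.1 (voom, and log2 of TPM plus 1 or 0.1), a replicate block, other length limits and leaving out each library.

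The transcripts and lists were chosen with earlier results of these data known. Other transcripts named are the 5 most read of 8000 nt or more, rows within 5 places of the pair with a mean of at least 10 reads, and the 3 most alike. Planned gene lists (ribosomal RNA synthesis, nuclear noncoding RNAs, K562 markers) need gene names and were not analysed.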

Additional observations from a re-analysis of the deposited data

How the results depend on the processing

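The log2 fold change of uc022brd.2 ranged from -0.51 to 0.56 when each library was left out, and that of uc010roh.3 from -0.21 to -0.03; a group left with 1 library is taken to vary as much as the other group does. No alternative brought either past the threshold. The ranges that follow also come from leaving out each library. The KD minus VC difference of uc022brd.2 ranged from -1.01 to 1.65 percentage points of reads and from -0.0491 to 0.0971 points of TPM. That of uc010roh.3 in TPM ranged from -0.00294 to 0.000412 points. The difference of the long class ranged from -1.29 to 1.30 points with both transcripts and from -1.26 to 1.33 without uc010roh.3. It ranged from -0.403 to -0.203 without uc022brd.2 and from -0.402 to -0.149 without both. The log2 ratio of the pair by reads ranged from -0.385 to 0.667. Other settings gave values outside some of these ranges. At a limit of 5000 nt the difference was -0.134 with both and -0.110 without uc010roh.3, against 0.00672 and 0.0347 at 8000 nt. Without uc022brd.2 it was -0.406 at 5000 nt and -0.148 at 10000 nt. With transcripts under 500 nt left out of TPM, that of uc010roh.3 was -0.00903 points. DESeq2 called 345 transcripts, 41 of them among the other long ones, where all 14 other alternatives called 0; the cause was not tested. With the replicate block the log2 fold changes were 0.02 for uc022brd.2 and -0.12 for uc010roh.3, and 730 transcripts had an unadjusted p below 0.05 against 1399 without it. No label says that the numbers pair samples, and the deviations of same-numbered libraries correlated at -0.01 over the 35776 transcripts and at -0.13 over the 3858 averaging 50 CPM or more. Of 122 alternative values, 12 turned direction and 2 counts moved. The other 108 kept their direction or, for counts of called transcripts, their number. They include the 14 alternatives that called 0, counted for all tested and again for the other long transcripts. Only the fold changes of the pair were also set against a threshold. The Wilson interval of the share of uc022brd.2 reached at most 0.0106 points to each side; the part of depth in the spread between libraries was not tested.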
